A study of Glycine max with 12 samples.

Results

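LOC100801836 is a soybean locus on chromosome 10 from which pods made several spliced RNAs, and its sense lncRNA isoforms were described here in every library. The deposited table of 11072 lncRNA transcripts was searched for rows with exactly this host gene name and class code j, which gave 4 members, MSTRG.4796.2, MSTRG.4796.4, MSTRG.4796.5 and MSTRG.4796.6, out of 1074 transcripts of that class. The locus itself was selected on measured values, because MSTRG.4796.5 and MSTRG.4796.6 passed the study's thresholds on fold change and unadjusted p in all 4 comparisons of the groups. Their differences between groups are therefore given as a description, and calls on them are not read as a test.

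Young pods of 2 soybean materials were collected at 30 and 40 d after flowering. MT72 is a low-linolenic acid mutant descended from soybean treated with ethyl methanesulfonate, a chemical that makes point mutations, and JN18 is the high-oil control labelled wild type. The parent line of MT72 is not named in the sources used here, so the mutations of MT72 and any other differences from JN18 cannot be told apart. The groups are JN_30 (libraries JN_7, JN_8 and JN_9), JN_40 (JN_4, JN_5 and JN_6), MT_30 (MT_7, MT_8 and MT_9) and MT_40 (MT_4, MT_5 and MT_6), named by material and day, with 3 biological replicates each. Levels are in FPKM, which scales the fragments of a transcript by its length and by library size.

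Class code j marks a transcript with more than 1 exon that shares at least a single splice junction with an annotated transcript but differs from it elsewhere. Such isoforms arise when a precursor RNA is spliced in alternative ways, and in plants the most common form is intron retention, in which an intron stays in the mature RNA. lncRNAs are RNAs longer than 200 bases without a long reading frame, and some of them act as scaffolds, decoys or precursors of small RNAs. In the RefSeq annotation of Glycine_max_v4.0, LOC100801836 is itself a lncRNA gene with 4 transcripts, placed between the protein-coding genes LOC100801293 and LOC100306027. Of 871 host genes of class j transcripts, 816 were matched to that annotation, and 152 of these (18.6%) were lncRNA genes, while 657 were protein-coding. The annotated transcripts of LOC100801836 were not analysed here, and no function is assigned to the gene in the sources used here.

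The libraries were of similar depth, from 10.0 to 12.3 Gb of aligned bases. Library JN_9 stood apart, with 2847 transcripts listed at 0 against 2074 to 2360 in the others. Its log2 levels correlated with JN_7 and JN_8 at 0.475 and 0.539 over 9142 lncRNAs. JN_7 and JN_8 correlated at 0.661, which was also below every pair within the other groups (0.711 to 0.824). JN_30 was thus the group whose libraries were least alike. Protein-coding markers of pod wall or seed were not analysed here, so the labelled tissue was not checked. In whole pods, fewer cells that make a transcript and less RNA per cell cannot be told apart.

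The 4 isoforms start within a few bases of each other and differ in how much of the locus they keep. MSTRG.4796.6, on the plus strand at positions 48325738 to 48329882, has 2 exons and a spliced length of 4052 bases. It omits only 93 bases of its span, so that 97.8% of the span is exonic. MSTRG.4796.5 (48325730 to 48329882) ends at the same base, has 3 exons and 2551 bases, and omits 1602 bases in 2 introns. MSTRG.4796.2 (48325718 to 48329882) also ends there and is the most spliced, with 4 exons, 1297 bases and 2868 intronic bases. MSTRG.4796.4 (48325723 to 48327300) covers the upstream part of the locus alone, with 3 exons and 1185 bases. The positions are those of the deposited table, whose genome build the sources used here do not name. Another transcript of the locus, MSTRG.4796.3 (48325723 to 48328668), overlaps the host exons without a shared junction (class code o) and has 2851 bases with 95 intronic bases.

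**Figure D1:**
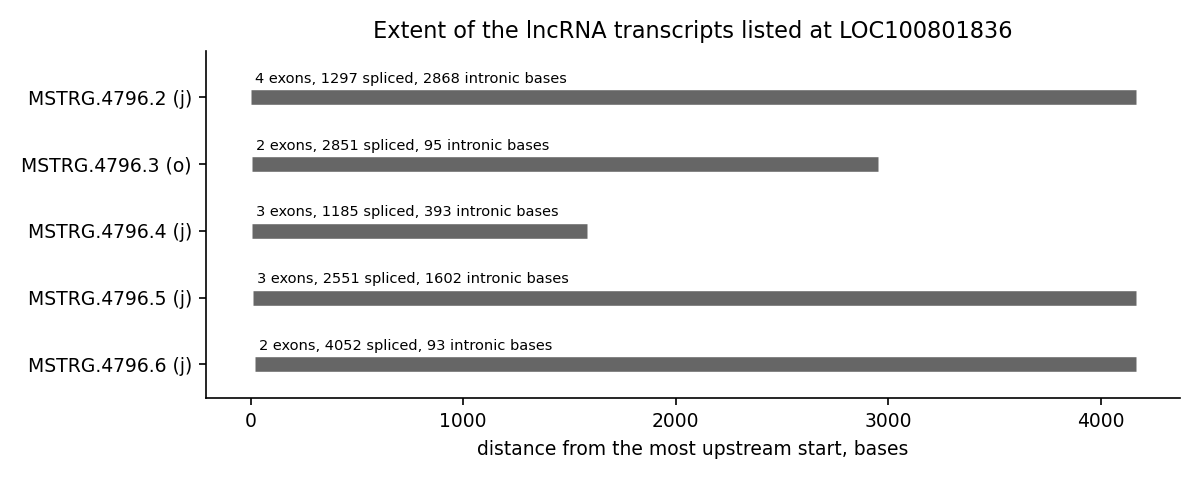
Extent of the 5 lncRNA transcripts listed at LOC100801836, by distance in bases from the most upstream start; bars run from start to end and do not show where the introns lie. MSTRG.4796.6 and MSTRG.4796.5 cover nearly the same span, with 93 and 1602 intronic bases.

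Among class j lncRNAs, MSTRG.4796.6 was unusual in its length and in how little was spliced out. It ranked 19 by length of 1074, where the median was 665.5 bases, and 3 of the 1074 had a larger exonic share of their span, where the median was 47.9%. MSTRG.4796.5 ranked 65 by length. Having 4 class j isoforms is itself uncommon, since 14 host genes had 4 or more of them and 135 had 2 or more. The CPC score, a coding potential score, was 0.0994 for MSTRG.4796.6, 0.0514 for MSTRG.4796.5, 0.0261 for MSTRG.4796.4 and 0.349 for MSTRG.4796.2, against a median of 0.042 in the class. The CNCI score, which compares the sequence with coding and non-coding sequence, was -0.0184 for each of the 3 isoforms with the same downstream end.

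The long isoform MSTRG.4796.6 was found in all 12 libraries and was the most abundant of the listed transcripts of the locus in all but 2 of them. Its mean over the libraries was 5.64 FPKM, which ranked 192 among 11072 lncRNAs and 24 among class j, while the median lncRNA had a mean of 0.383 FPKM. In JN_30 it was at 8.36 FPKM in JN_7, 10.7 in JN_8 and 11.5 in JN_9, with a mean of 10.2 ± 1.63 (SD, n = 3). In JN_40 it was at 0.509 FPKM in JN_4, 7.96 in JN_5 and 1.41 in JN_6, with a mean of 3.29 ± 4.06 (SD, n = 3). All libraries of JN_40 lay below all of JN_30, but JN_5 lay just under the lowest of them and far above the other 2.

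In MT72 the order of the stages was the opposite. MSTRG.4796.6 was at 1.44 FPKM in MT_7, 3.13 in MT_8 and 1.05 in MT_9, a mean of 1.87 ± 1.10 (SD, n = 3) in MT_30. It was at 7.77 FPKM in MT_4, 8.50 in MT_5 and 5.37 in MT_6, a mean of 7.21 ± 1.63 (SD, n = 3) in MT_40. Every library of MT_40 was above every library of MT_30. The groups thus ranked JN_30, MT_40, JN_40 and MT_30 from high to low, and each neighbouring pair in this order overlapped.

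In these units the long isoform was 3.09-fold lower in JN_40 than in JN_30 and 3.85-fold higher in MT_40 than in MT_30. Between the materials it was 5.44-fold lower in MT_30 than in JN_30, again without overlap, and 2.19-fold higher in MT_40 than in JN_40, where JN_5 lay within the range of MT_40. Groups without overlap were found for 13.1% of the 9142 lncRNAs tested in JN_40 versus JN_30, 28.6% in MT_40 versus MT_30, 17.7% for MT_30 versus JN_30 and 14% for MT_40 versus JN_40. Without JN_5 the mean of JN_40 was 0.962 FPKM (n = 2), and without JN_9 the mean of JN_30 was 9.55 FPKM (n = 2).

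The shorter isoform MSTRG.4796.5 was scarce and was highest in the 4 libraries where the long isoform was lowest. StringTie, which quantified the transcripts, divides reads of shared exons between overlapping transcripts, so these levels are not independent of each other. It was listed at 0 in JN_7 and JN_9 and at 0.0700 FPKM in JN_8, a mean of 0.0233 ± 0.0404 (SD, n = 3) in JN_30. In JN_40 it was at 0.733 FPKM in JN_4, 0.0316 in JN_5 and 1.20 in JN_6, a mean of 0.653 ± 0.586 (SD, n = 3). The groups overlapped, because JN_5 was again close to the libraries at 30 d.

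In MT72, MSTRG.4796.5 was at 1.48 FPKM in MT_7, 0.0860 in MT_8 and 0.581 in MT_9, a mean of 0.716 ± 0.707 (SD, n = 3) in MT_30. In MT_40 it was listed at 0 in MT_4 and MT_5 and at 0.148 FPKM in MT_6, a mean of 0.0492 ± 0.0852 (SD, n = 3). MT_8 lay below MT_6, so that these groups overlapped too. Of the 4 comparisons, MT_30 and JN_30 were the one without overlap for this isoform. The gap was narrow and near 0, with MT_8 at 0.0860 FPKM just above JN_8 at 0.0700. MT_30 and JN_30 did not overlap for 17.7% of the 9142 lncRNAs tested. The lowest values rest on few reads, with an estimate of 6.32 reads in JN_5 and 17.0 in MT_8 against 281 in MT_7, the highest.

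**Figure D2:**
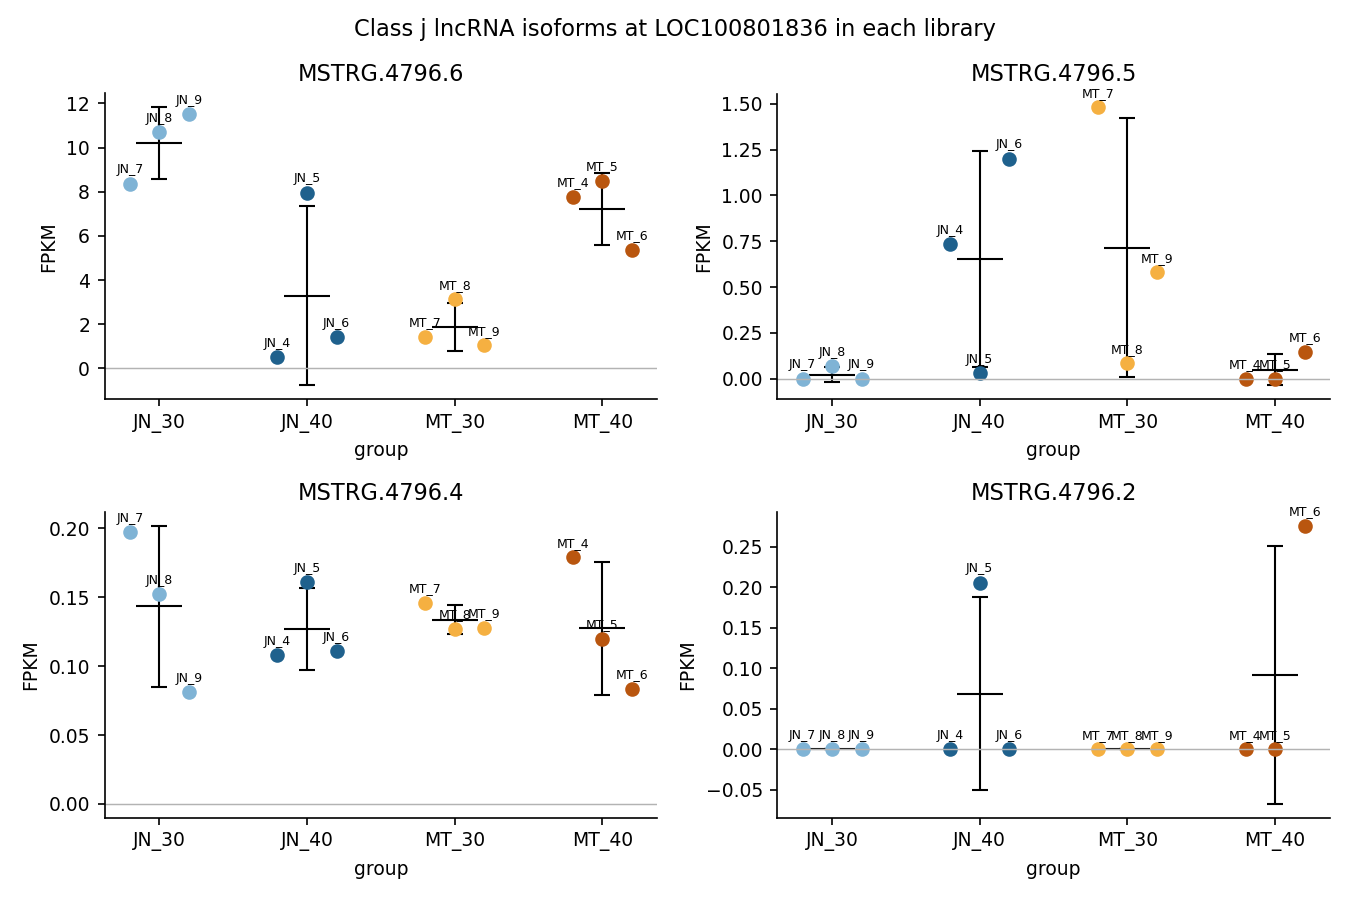
FPKM of the 4 class j isoforms in each library (points, labelled by library), with the mean and SD of each group of 3 (black). MSTRG.4796.6 runs from 0.509 to 11.5 FPKM and MSTRG.4796.5 from 0 to 1.48 FPKM, with JN_5 and MT_8 apart from the other libraries of their groups.

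On the scale of log2(FPKM + 0.1), where 0.1 is a pseudocount that keeps values of 0 defined, the long and the shorter isoform had differences of opposite sign in every comparison. For MSTRG.4796.6 the difference was -2.39 (standard error 0.70) in JN_40 versus JN_30, 2.01 (0.70) in MT_40 versus MT_30, -2.51 (0.70) in MT_30 versus JN_30 and, at 40 d, 1.88 (0.70) in MT_40 versus JN_40. For MSTRG.4796.5 these differences were 2.13, -2.11, 2.29 and -1.95, each with a standard error of 0.89. The median over all 9142 lncRNAs was between -0.10 and -0.01 in each comparison. The comparisons share libraries, since each group enters 2 of them.

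Both isoforms passed the study's cut-offs in the limma fit, an unadjusted p no larger than 0.05 with a log2 difference beyond 1 in either direction, which is how the locus was chosen. The share of all lncRNAs called in this way was 10.6% in JN_40 versus JN_30, 14.2% in MT_40 versus MT_30, 12% for MT_30 versus JN_30 and 5.85% for MT_40 versus JN_40. The value closest to the threshold was that of MSTRG.4796.5 in MT_40 versus JN_40, with an unadjusted p of 0.0466, and the closest outside it at this locus was that of MSTRG.4796.3 in the same comparison, with 0.143. At a p adjusted over all lncRNAs of at most 0.05, 0 of the 3 class j isoforms of the locus that passed the filter were called in any comparison, where 0.197%, 2.5%, 0.886% and 0.153% of lncRNAs were called in the same order. Without JN_4, the difference of MSTRG.4796.6 in MT_40 versus JN_40 was 1.04. Without MT_7, that of MSTRG.4796.5 in MT_40 versus MT_30 was -1.40, and without JN_6 its difference in MT_40 versus JN_40 was -1.29. None of these values passed the unadjusted threshold. Without JN_5, the difference of MSTRG.4796.6 in JN_40 versus JN_30 was -3.41 and passed the adjusted one. With only the compared groups in the fit, its difference in MT_40 versus MT_30 was 2.01 and passed the adjusted threshold too. All these calls rest on the values that chose the locus, so they are a description and lend it no support.

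The log2 ratio between the isoforms ranged more widely over the libraries than either level, which follows from levels that ran in opposite directions. It was computed as log2 of the FPKM of MSTRG.4796.6 over that of MSTRG.4796.5, each plus 0.1. The ratio is made of the levels that chose the locus, and reads of shared exons were divided between the isoforms. It therefore adds no separate support. In JN_30 the ratio was 6.40 in JN_7, 5.995 in JN_8 and 6.86 in JN_9, a mean of 6.42 ± 0.43 (SD, n = 3). In JN_40 it was -0.45 in JN_4, 5.94 in JN_5 and 0.23 in JN_6, a mean of 1.90 ± 3.51 (SD, n = 3). The long isoform made up nearly all of the pair in JN_30 and in JN_5, while JN_4 and JN_6 held the isoforms in amounts of the same order.

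In MT_30 the ratio was -0.03 in MT_7, 4.12 in MT_8 and 0.75 in MT_9, a mean of 1.61 ± 2.20 (SD, n = 3). In MT_40 it was 6.30 in MT_4, 6.43 in MT_5 and 4.47 in MT_6, a mean of 5.73 ± 1.10 (SD, n = 3). The means of the stages differed in opposite directions, by 4.12 in MT_40 versus MT_30 but by -4.51 in JN_40 versus JN_30. On this scale the stages did not overlap in either material, but the gaps were narrow and that in JN18 depended on the pseudocount. The plain FPKM ratio was 251 in JN_5, above the 153 in JN_8, so that the stages of JN18 overlapped without a pseudocount. In MT72 it was 36.4 in MT_6 and 36.3 in MT_8, which is nearly a tie. Between the materials the mean log2 ratio differed by -4.81 in MT_30 versus JN_30, without overlap with or without the pseudocount, and by 3.83 in MT_40 versus JN_40, where the groups overlapped. Of 246 pairs of class j isoforms of one host gene, the log2 ratio did not overlap in 9.76% for JN_40 versus JN_30, 17.1% for MT_40 versus MT_30, 11.8% for MT_30 versus JN_30 and 11.4% for MT_40 versus JN_40.

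As a share of the summed FPKM of the pair, MSTRG.4796.5 was 0 to 0.647% in JN_30, 0 to 2.67% in MT_40, 2.68% to 50.6% in MT_30 and 0.396% to 59.0% in JN_40. It exceeded the long isoform in 2 libraries, MT_7 and JN_4. Counted as estimated reads, which do not correct for the greater length of MSTRG.4796.6, its share was 39.2% in MT_7 and 47.5% in JN_4. The 4 libraries with the highest MSTRG.4796.5, namely MT_7, JN_6, JN_4 and MT_9, were also the 4 with the lowest MSTRG.4796.6. These orders are not independent, since reads of shared exons were divided between the isoforms.

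**Figure D3:**
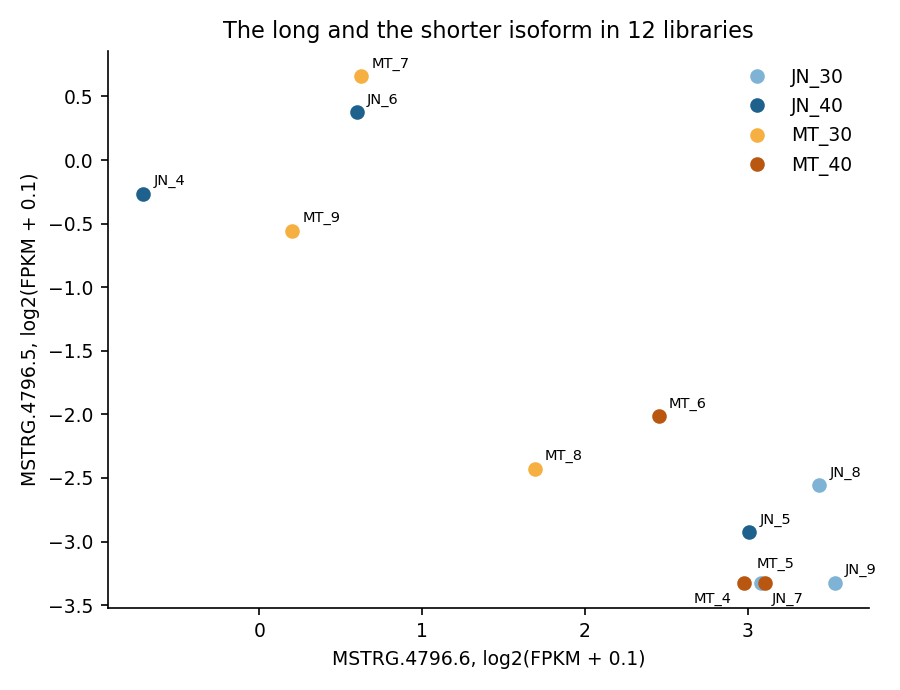
log2(FPKM + 0.1) of MSTRG.4796.6 (x axis) against that of MSTRG.4796.5 (y axis) in the 12 libraries, coloured by group. JN_4, JN_6, MT_7 and MT_9 lie at the upper left, and JN_5 lies with the libraries of JN_30 and MT_40 at the lower right.

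The summed level of the listed lncRNA transcripts largely followed MSTRG.4796.6, whose values chose the locus, so it is not a separate difference. The annotated transcripts of LOC100801836 are not in this sum, so the total level of the locus is not known. The 5 listed transcripts together had a mean of 10.4 FPKM in JN_30 (SD 1.53) and of 4.28 FPKM in JN_40 (SD 3.62). In MT72 this sum had a mean of 2.82 FPKM at 30 d (SD 0.795) and of 7.52 FPKM at 40 d (SD 1.42), with 3 libraries in each group. Single libraries ran from 1.53 FPKM in JN_4 to 11.6 in JN_9. The sum overlapped between MT_40 and JN_40. In JN18 the gap between the stages was narrow, with JN_5 at 8.38 FPKM and JN_7 at 8.69. The difference in MSTRG.4796.5 was small beside that in MSTRG.4796.6, with means that differed by 0.63 and -6.9 FPKM in JN_40 minus JN_30. In MT_40 minus MT_30 these differences were -0.666 and 5.34 FPKM.

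**Figure D4:**
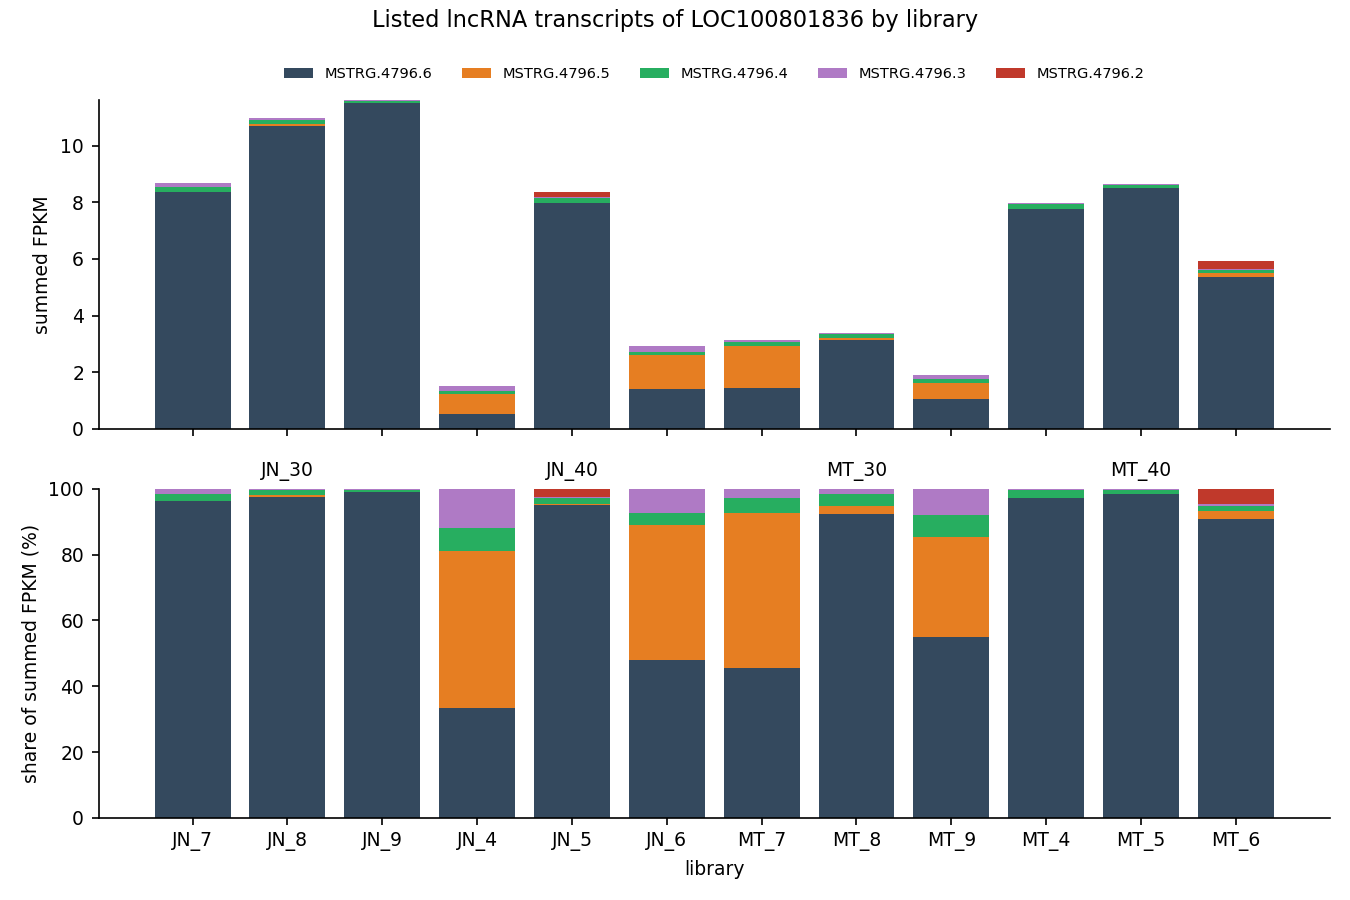
Summed FPKM (upper panel) and share of the sum in percent (lower panel) of the 5 lncRNA transcripts listed at LOC100801836, by library. MSTRG.4796.6 is 90.8% to 99% of the sum in JN_30 and MT_40, and 33.2% to 54.8% in JN_4, JN_6, MT_7 and MT_9.

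The other listed transcripts of the locus were low in every group. MSTRG.4796.4, which covers the upstream part, was found in all 12 libraries between 0.0812 and 0.197 FPKM. Its group means of 3 libraries were 0.144 FPKM in JN_30 (SD 0.0585), 0.127 FPKM in JN_40 (SD 0.0296), 0.134 FPKM in MT_30 (SD 0.0108) and 0.127 FPKM in MT_40 (SD 0.0480). All comparisons overlapped, and its log2 differences lay between -0.08 and -0.01, with a standard error of 0.42. Its highest library estimate was 16.9 reads, so small differences were not detectable at this depth.

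The most spliced isoform, MSTRG.4796.2, was listed above 0 in MT_6 (0.276 FPKM) and JN_5 (0.206 FPKM) and at 0 in the other 10 libraries. These are estimates of 27.7 and 20.9 reads, and the isoform did not pass the filter of 0.1 FPKM in at least 3 libraries. The remaining 3 class j isoforms passed it.

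MSTRG.4796.3, the overlapping transcript whose values did not choose the locus, was tested in the same fit. Its mean of 3 libraries was 0.0336 FPKM in MT_40 (SD 0.00348) against 0.0983 FPKM in MT_30 (SD 0.0526). These groups did not overlap, as was found for 28.6% of the lncRNAs tested. The log2 difference of -0.54 (standard error 0.47) did not pass the test in limma with p adjusted over all lncRNAs (adjusted p = 0.64). All values of MT_40, 0.0295 to 0.0357 FPKM, lie below the pseudocount of 0.1 FPKM, which makes log2 differences at such levels smaller. MSTRG.4796.3 was not described under other pseudocounts. In JN_40 it was at 0.139 ± 0.102 FPKM (SD, n = 3) against 0.0714 ± 0.0554 (SD, n = 3) in JN_30, with a log2 difference of 0.42 (standard error 0.47, adjusted p = 0.764). StringTie divides reads of shared exons between overlapping transcripts, so the values of the 5 transcripts are not independent of each other.

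Few other lncRNAs lay near the locus, and those that could be tested did not pass. Within 100 kb, MSTRG.4798.1 (chromosome 10, 48264004 to 48264495) and MSTRG.4799.1 (48264785 to 48266102) lie within introns of LOC100796870, a protein-coding gene. MSTRG.4798.1 had a mean of 1.85 FPKM in MT_40 (SD 0.208) against 1.21 FPKM in MT_30 (SD 0.615), a log2 difference of 0.67 (standard error 0.395, limma adjusted p = 0.456). In JN_40 it was at 1.22 ± 0.0616 FPKM (SD, n = 3) and in JN_30 at 1.5 ± 0.588 (SD, n = 3), a log2 difference of -0.21 (standard error 0.395, limma adjusted p = 0.872). MSTRG.4799.1 ran from 0.803 to 1.67 FPKM over all libraries, and its largest log2 difference was 0.32 in MT_40 versus MT_30 (standard error 0.32, limma adjusted p = 0.688). The intergenic MSTRG.4800.1 was listed above 0 in 2 libraries of MT_30, at up to 0.0532 FPKM, and was not tested.

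The libraries JN_5 and MT_8, which differed from their groups at this locus, were not set apart over the whole table. JN_5 correlated with JN_4 and JN_6 at 0.730 and 0.745 over 9142 lncRNAs, and JN_4 with JN_6 at 0.711. MT_8 correlated with MT_7 and MT_9 at 0.816 and 0.824, and MT_7 with MT_9 at 0.807. Their depths of 11.7 and 11.6 Gb lay within the range of the others.

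The lncRNAs whose pattern was most like that of the isoforms were sought among 4527 with a mean of at least 0.5 FPKM, by Pearson's correlation of log2(FPKM + 0.1) over the 12 libraries. These correlations share the libraries and rest in part on the differences between groups, and they are given as a measure of likeness only. Most like MSTRG.4796.6 was MSTRG.15169.7, an intronic transcript of LOC102664370 on chromosome 14 (r = 0.89), which ran from 1.04 FPKM in JN_4 to 2.11 in MT_5. It was followed by MSTRG.5635.1 in an intron of LOC100795492 (r = 0.84) and by the intergenic MSTRG.30278.1 (r = 0.83), MSTRG.43528.1 (r = 0.81) and MSTRG.17593.1 (r = 0.80). MSTRG.30278.1, on chromosome 2, was not found in every library. It was at 0.638 FPKM in MT_4, 0.563 in MT_5, 1.38 in JN_5, 1.21 in JN_7, 1.60 in JN_8 and 0.730 in JN_9, and was listed at 0 in the other 6 libraries.

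Most like MSTRG.4796.5 was MSTRG.36882.1, a class j transcript of LOC106798371 on chromosome 4 (r = 0.83). Its values ran from 0.427 FPKM in MT_4 to 1.25 in MT_7, a narrower range than that of the isoform. MSTRG.11708.1 (r = 0.79), MSTRG.4602.1 (r = 0.78) and MSTRG.6956.1 (r = 0.76) lie in introns of LOC100801193, LOC100787184 and LOC100791634, and MSTRG.24642.1 (r = 0.77) is intergenic. MSTRG.4602.1 lies on chromosome 10 as well, and was at 1.21 FPKM in MT_7, 1.13 in JN_4 and 1.22 in JN_6 against 0.264 in MT_8 and 0.369 in JN_5. It was also at 0.427 FPKM in MT_9 and 0.741 in MT_6, and between 0.0771 and 0.648 in the others.

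The ratio of the LOC100801836 isoforms was set beside those of other genes that made more than 1 class j isoform. There were 246 pairs of isoforms at 103 host genes, with a mean of at least 0.1 FPKM for each isoform. The means of the log2 ratio in the 4 groups spanned 4.81 for MSTRG.4796.5 and MSTRG.4796.6, which was rank 1 of 246, and the median pair spanned 1.42. The next was MSTRG.13454.7 and MSTRG.13454.8 at LOC100794484, with 4.30. The ratio at LOC100801836 also varied within groups, with a pooled SD of 2.15 against a median of 1.06, and 20 pairs had a larger one. The locus was selected from the same values, so its place is a description. The pairs of MSTRG.4796.4 with MSTRG.4796.6 and with MSTRG.4796.5 spanned 2.48 and 2.32, at rank 33 and rank 42.

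**Figure D5:**
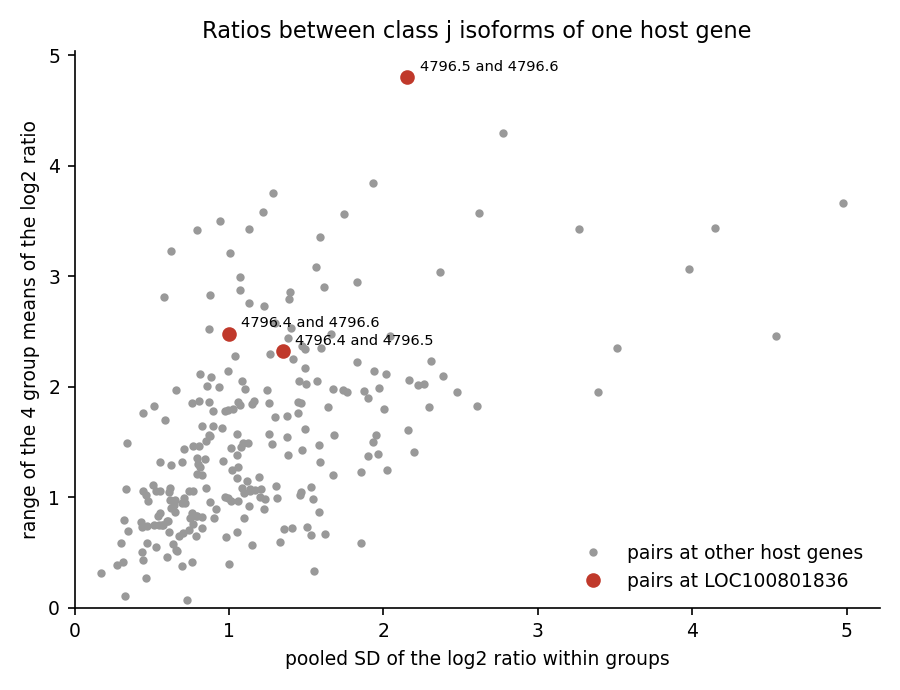
Range of the 4 group means of the log2 ratio (y axis) against the pooled SD within groups (x axis) for 246 pairs of class j isoforms of one host gene, with the 3 pairs at LOC100801836 in red. The pair of MSTRG.4796.5 and MSTRG.4796.6 has the widest range, 4.81, and an SD of 2.15.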

How the data were processed

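Total RNA of young pods was depleted of ribosomal RNA and sequenced from a stranded library kit as paired reads of 150 bases in 12 libraries. The authors trimmed reads with Cutadapt and mapped them (HISAT2 in the paper's methods, TopHat2 in the submitters' processing notes, versions not stated). They assembled and quantified transcripts with StringTie, and the deposited FPKM values are 1 per transcript and library. The deposited coverage, a signal of mean reads per base, was not normalized. The CPC score and CNCI score were computed by the authors per transcript.

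Aligned bases per library were taken from the ratio of coverage to FPKM, and estimated reads from coverage times length over 150. Differences came from limma 3.58.1 in R 4.3.3 on log2(FPKM + 0.1), with a trend in the variance, all 4 groups in 1 fit and Benjamini-Hochberg adjustment over the 9142 lncRNAs that exceeded 0.1 FPKM in 3 or more libraries. No count test was run, since the table holds no counts. The p-values set each difference between groups against the spread between these libraries within their groups, pooled over the 4 groups. The fit was also run on simulated log2 values drawn independently for each lncRNA. That run does not show how the fit treats isoforms that share reads or are scarce. Descriptions used Python 3.11.15, pandas 2.3.3 and matplotlib 3.10.9.

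The isoforms and lists were chosen with earlier results of these data known. Transcripts named were all those of the locus, those within 100 kb and the 5 most alike to each isoform with a mean of at least 0.5 FPKM; the pair at LOC100794484 and the genes beside the locus were named after their values were seen. Alternatives were pseudocounts of 0.01 and 1, no filter, rescaled FPKM, a fit of the compared groups alone, a replicate block and a fit without each library in turn. Sequences, mRNAs and miRNAs were not analysed here.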

Additional observations from a re-analysis of the deposited data

Results flagged for a closer look

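The stage difference of MSTRG.4796.6 was of opposite sign in the 2 materials. Every library of MT_40 was above every library of MT_30, as groups without overlap were for 28.6% of the 9142 lncRNAs tested. Every library of JN_40 was below every library of JN_30, where 13.1% of lncRNAs did not overlap. In JN18 the gap was narrow, with JN_5 at 7.96 FPKM and JN_7 at 8.36. On the log2 scale the stage difference in MT72 minus that in JN18 was 4.39 (standard error 0.99). Because the isoform was chosen by these values, this contrast of the fit is a description. No conclusion on whether the materials differ is drawn from it.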

How the results depend on the processing

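The sign of every log2 difference of MSTRG.4796.5 and MSTRG.4796.6 was the same under all alternatives run, while sizes and calls were not. With a pseudocount of 0.01 FPKM the differences of MSTRG.4796.5 were 4.06 in JN_40 versus JN_30, -4.13 in MT_40 versus MT_30, 4.46 in MT_30 versus JN_30 and, at 40 d, -3.74 in MT_40 versus JN_40. With a pseudocount of 1 FPKM they were 0.62, -0.63, 0.66 and -0.59, and none was called. The ratio differed by 6.20 and 2.19 under these pseudocounts in MT_40 versus MT_30, and by -7.04 and -2.68 in MT_30 versus JN_30. The size therefore depends on the pseudocount, since several libraries list MSTRG.4796.5 at or near 0. With a pseudocount of 1 FPKM, 108, 290, 245 and 88 lncRNAs were called in the same order, against 972, 1297, 1095 and 535. With only the compared groups in the fit, 619 were called in JN_40 versus JN_30, and neither isoform in MT_40 versus JN_40.

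MSTRG.4796.6 kept its unadjusted call in 11 of 11 alternatives in JN_40 versus JN_30, 12 of 12 in MT_30 versus JN_30, 10 of 11 in MT_40 versus MT_30 (lost without MT_9) and 8 of 12 in MT_40 versus JN_40 (lost also without MT_5, JN_4 or JN_6). MSTRG.4796.5 kept it in 6 of 11, 7 of 12, 6 of 11 and 5 of 12, in the same order of comparisons. Its call was lost without any of MT_4, MT_5, MT_7, MT_9, JN_4, JN_6, JN_7 and JN_9 in each comparison that the library enters, and kept without MT_6, MT_8, JN_5 or JN_8. The cause was not tested. Both isoforms were chosen for being called in these comparisons, and the alternatives reuse the same libraries. Kept calls are therefore no evidence of a difference, and in the main fit neither isoform was called at the adjusted threshold.

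Libraries with the same number in the 2 materials did not deviate together (correlations of -0.159 to 0.0136). With 3 libraries per group this cannot show whether same-numbered libraries were handled together, and the labels do not say so. With the number as a replicate block, 756 lncRNAs were called in MT_30 versus JN_30, and 521 at 40 d in MT_40 versus JN_40. Both isoforms kept their unadjusted calls in this paired fit.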
